A study of Mus musculus with 6 samples.

Results

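Levels of 7 candidate genes of the insulin-dependent diabetes (Idd) loci of NOD mice, Il2, Il21, Ctla4, Slc11a1, Cd101, Ptpn22 and Vav3, were examined in spleen. The 7 genes were taken by symbol, from a list that used no measured value, out of the 47729 genes of the count table. RNA sequencing counts were available for spleens of 3 NOD.B10 (NOD.B10Sn-H2b/J) females and 3 BL/10 (C57BL10/SnJ, C57BL/10) females. NOD.B10 mice carry the H2b haplotype of the B10 strain on the NOD background and are used as a model of primary Sjögren's syndrome, and BL/10 mice are the healthy control strain. Both strains therefore share the H2b haplotype. They can differ at many loci in the rest of the genome, so that the effect of 1 locus cannot be told apart from that of the others. Strains were assigned by the library descriptions and column names, which name the strain opposite to the one in the titles and strain fields for all 6 libraries. Every direction given here would be reversed under the titles. With that assignment the 3 NOD.B10 libraries and BL/10 replicate 1 were labelled 26 weeks of age and BL/10 replicates 2 and 3 were labelled 36 weeks, whereas the study describes age-matched mice of 26 weeks.

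The Idd loci are chromosomal intervals at which NOD alleles change the frequency of autoimmune diabetes, and several of them also affect other autoimmune traits. Il2 and Il21 lie in the same interval and encode T cell cytokines that signal through receptors sharing the common gamma chain, IL-2 being required for regulatory T cells and IL-21 being a product of follicular helper T cells. Ctla4 encodes an inhibitory receptor that competes with CD28 for its ligands, Ptpn22 a phosphatase that dampens antigen receptor signaling, Vav3 a guanine nucleotide exchange factor of antigen receptor signaling, Slc11a1 (Nramp1) a divalent metal transporter of phagosomes, and Cd101 an immunoglobulin superfamily receptor of myeloid cells and subsets of T cells.

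Total counts were between 15662712 and 18298451 per library, and levels are given as CPM (counts adjusted for library size with the TMM factors of edgeR). The floor of detection, set at 3 counts, was worth 0.164 to 0.192 CPM and covers counting error only. B cell and macrophage markers were present in all 6 libraries, at summed levels of 3547 to 6252 and 4804 to 6062 CPM, respectively. The libraries also differed in their content of other cell types. Summed T cell markers were 1094 to 1466 CPM in NOD.B10 and 483 to 640 CPM in BL/10, and summed neutrophil markers were 2295 to 2638 CPM in NOD.B10 and 6419 to 13395 CPM in BL/10. The 16 pancreas acinar markers summed to 22.9 to 31.7 CPM in NOD.B10, and to 13838, 2130 and 114 CPM in BL/10 replicates 1, 2 and 3. BL/10 replicate 1 thus stood apart in acinar transcripts, and it is also the only BL/10 library labelled 26 weeks. It differed from BL/10 replicates 2 and 3 in other markers as well. Summed B cell markers were 6252 against 3547 and 3760 CPM, and follicular helper T cell markers 560 against 384 and 443 CPM. Neutrophil markers were 6419 against 13395 and 11806 CPM, and erythroid markers 30507 against 60646 and 69276 CPM. Macrophage markers were closer, with 5184 against 5325 and 6062 CPM. The age label, the acinar transcripts, the other markers and anything else particular to BL/10 replicate 1 cannot be told apart. Results for Ptpn22, Ctla4 and Il21 and the counts of the reported lists of partner genes are given with and without BL/10 replicate 1. Most named genes of these lists are given from all 6 libraries only. Without BL/10 replicate 1, NOD.B10 libraries labelled 26 weeks are set against BL/10 libraries labelled 36 weeks. Strain and labelled age cannot be told apart in that setting. In bulk tissue, fewer cells of a type and less RNA per cell cannot be told apart.

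Of the 7 genes, 6 passed the filter on low counts and 1, Il2, did not. Ptpn22 was the single gene of the 6 to pass the threshold of an adjusted p of 0.05 in edgeR's quasi-likelihood test with Benjamini-Hochberg adjustment, and it was higher in NOD.B10. Over all genes tested, 17.3% passed this threshold (9.11% higher and 8.22% lower in NOD.B10), so that 1 of 6 was close to the background. NOD.B10 and BL/10 libraries did not overlap for 2 of the 6 genes, Ctla4 and Ptpn22, against 38% of all genes tested. The median log2 fold change of the 6 genes was 0.48, compared with 0.00060 for all genes tested. Without BL/10 replicate 1 these medians were 0.52 and 0.0049, and against BL/10 replicate 1 alone they were 0.062 and 0.0052. With DESeq2, which called 17.6% of the genes it tested, Ptpn22 was again the single gene to pass. Without BL/10 replicate 1, 3 of the 6 genes (Ptpn22, Ctla4 and Il21) passed, all higher in NOD.B10, where 26.3% of all genes tested passed and 12.3% were higher. The BL/10 libraries in that fit are those labelled 36 weeks, so this difference is one of strain and labelled age together. With the 3 NOD.B10 libraries set against BL/10 replicate 1 alone, none of the 6 passed in edgeR's quasi-likelihood test, 1 of them (Ptpn22) had an unadjusted p under 0.05, and 6.19% of all genes tested passed.

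**Figure D1:**
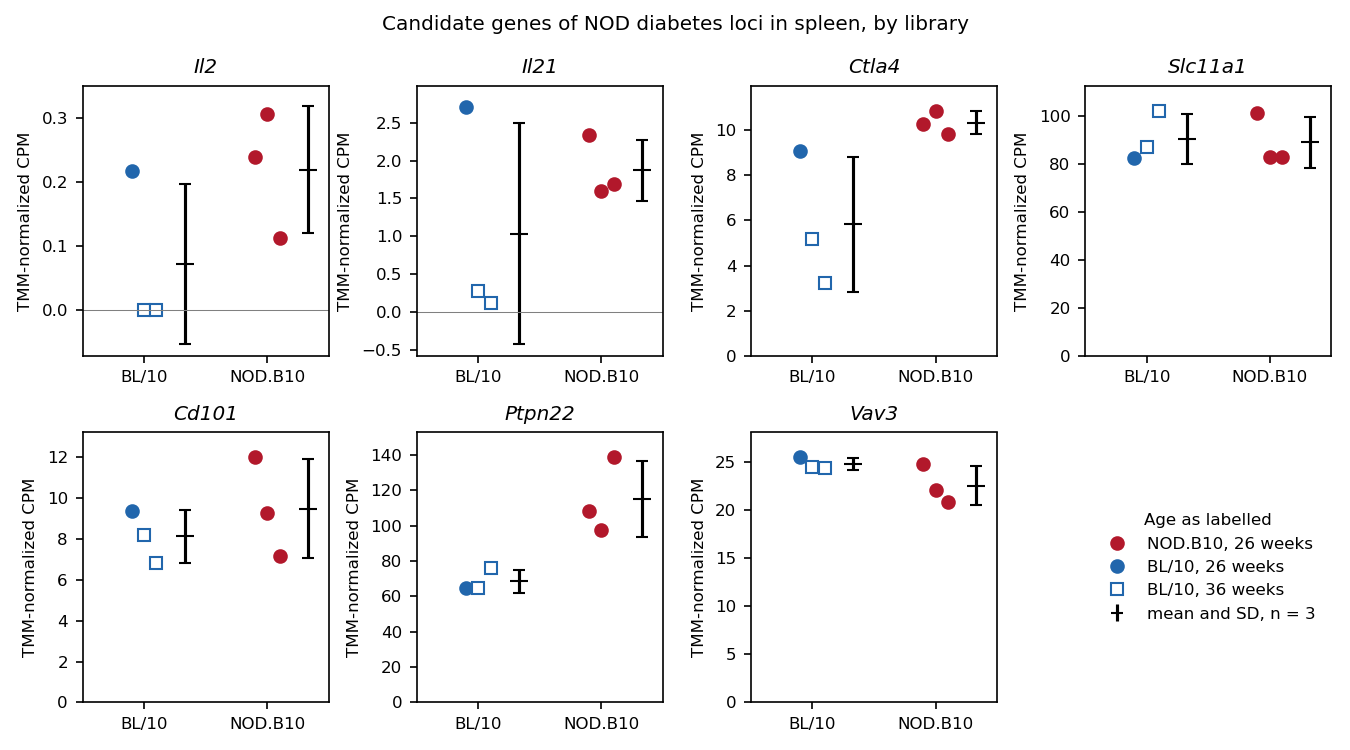
TMM-normalized CPM of the 7 candidate genes in each library (y axis, with a range of its own for each gene) by strain (x axis), with NOD.B10 in red, BL/10 in blue, filled circles for 26 weeks and open squares for 36 weeks, and the mean and SD of 3 libraries in black. Ptpn22 lay between 97.5 and 139 CPM in NOD.B10 and between 64.6 and 76.1 CPM in BL/10, whereas for Il21 and Ctla4 BL/10 replicate 1 lay apart from the other two BL/10 libraries.

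The genes differed widely in their level per length of exon. In NOD.B10 the order was Slc11a1 with 24.0 ± 2.90 CPM per kb (SD, n = 3), Ptpn22 with 17.0 ± 3.16, Ctla4 with 4.43 ± 0.223, Vav3 with 3.76 ± 0.334, Cd101 with 2.85 ± 0.727, Il21 with 0.356 ± 0.0764 and Il2 with 0.192 ± 0.0864 CPM per kb. In this order the libraries of Vav3 and Cd101 overlapped and those of the other neighboring pairs did not. In BL/10 the order was Slc11a1 with 24.4 ± 2.81 CPM per kb, Ptpn22 with 10.1 ± 0.970, Vav3 with 4.13 ± 0.106, Ctla4 with 2.50 ± 1.28, Cd101 with 2.44 ± 0.387, Il21 with 0.196 ± 0.278 and Il2 with 0.0633 ± 0.110 CPM per kb. Ctla4 overlapped with Cd101 in BL/10, as did Il21 with Il2. Both strains thus had the metal transporter gene and the phosphatase gene at the top and both cytokine genes at the bottom.

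For the 4 genes known for their roles in T cells, Il2, Il21, Ctla4 and Ptpn22, the 250 bases before the RefSeq transcription start are shown (build GRCm38.p6), since the differences described below are those of Il21, Ctla4 and Ptpn22 and Il2 shares an interval with Il21. The windows are chr3:37125955-37126204 on the minus strand for Il2, chr3:37232637-37232886 on the minus strand for Il21, chr1:60908775-60909024 on the plus strand for Ctla4, and chr3:103859545-103859794 on the plus strand for the first of 2 Ptpn22 starts. Each is written 5′ to 3′ on the strand of the gene. Capitals mark GGAAA, the core of the site bound by NFAT factors, and TTTCC, its reverse complement.
Il2: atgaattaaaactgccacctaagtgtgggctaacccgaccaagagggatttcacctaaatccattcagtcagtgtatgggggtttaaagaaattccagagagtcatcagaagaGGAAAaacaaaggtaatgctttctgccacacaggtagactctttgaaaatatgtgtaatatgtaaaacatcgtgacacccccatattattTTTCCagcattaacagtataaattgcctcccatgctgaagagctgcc
Il21: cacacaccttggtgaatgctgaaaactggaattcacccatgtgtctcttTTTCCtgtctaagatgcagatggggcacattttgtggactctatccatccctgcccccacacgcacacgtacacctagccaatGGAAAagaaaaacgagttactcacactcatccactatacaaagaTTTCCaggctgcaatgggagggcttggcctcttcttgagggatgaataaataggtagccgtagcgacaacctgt
Ctla4: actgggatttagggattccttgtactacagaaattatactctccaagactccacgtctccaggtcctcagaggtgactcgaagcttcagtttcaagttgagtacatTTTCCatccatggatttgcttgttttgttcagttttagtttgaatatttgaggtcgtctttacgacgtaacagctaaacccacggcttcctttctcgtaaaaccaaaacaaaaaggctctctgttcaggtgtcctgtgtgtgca
Ptpn22: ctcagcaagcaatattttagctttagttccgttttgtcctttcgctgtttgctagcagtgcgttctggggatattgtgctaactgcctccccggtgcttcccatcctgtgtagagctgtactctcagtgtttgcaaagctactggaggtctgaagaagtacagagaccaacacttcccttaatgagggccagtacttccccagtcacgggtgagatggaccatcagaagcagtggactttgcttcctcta
Counted on both strands, GGAAA was present 2 times in the Il2 window, 3 times in the Il21 window, once in the Ctla4 window and not in the Ptpn22 window shown. It was also present once in the window of the second Ptpn22 start, once in that of Cd101 and once in 1 of the 3 Vav3 windows, and not in that of Slc11a1. No matches overlapped. These 5 letters occur in 55.6% of 32851 RefSeq windows of the same length, so their presence is common. TGANTCA, the site of AP-1 factors, occurs in 6.75% of all windows and was in none of the 4 windows shown. The Ctla4 window lies in an intron of the longest Ensembl model of the gene. Counts of exon reads do not measure binding at any of these sites.

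Il2 (ENSMUSG00000027720) and Il21 (ENSMUSG00000027718) are neighbors on chromosome 3 (GRCm38), at positions 37120523 to 37125959 and 37222759 to 37232636 on the minus strand. Il2 was read 4, 5 and 2 times in NOD.B10 replicates 1, 2 and 3 and 4, 0 and 0 times in BL/10 replicates 1, 2 and 3. The counts were near or under the floor of 3 in all libraries, BL/10 replicate 1 was within the range of NOD.B10, and a difference was not detectable at this depth. Without the filter on low counts, the log2 fold change of Il2 was 1.39 with an adjusted p of 0.444 in edgeR's quasi-likelihood test, a value that depends on the handling of the counts of 0.

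Il21 was read 39, 26 and 30 times in NOD.B10 and 50, 4 and 2 times in BL/10. This was 2.33, 1.60 and 1.69 CPM in NOD.B10 and 2.72, 0.268 and 0.114 CPM in BL/10. BL/10 replicate 1 had the highest level of all 6 libraries, 14.2 times the mean of BL/10 replicates 2 and 3, whereas these other two were lower than every NOD.B10 library. Over all libraries the log2 fold change of Il21 was 0.80 (SE 0.82, 95% interval -1.10 to 2.71) and did not pass (adjusted p = 0.526, edgeR's quasi-likelihood test). Without BL/10 replicate 1 it was 3.28 and passed (adjusted p = 0.00321, edgeR), and against BL/10 replicate 1 alone it was -0.54 (adjusted p = 0.415, edgeR). The size and the call of Il21 therefore depended on BL/10 replicate 1. When any single library was left out, the log2 fold change stayed above 0 (0.26 to 3.28). Of the exon bases of Il21, 8.92% are shared with the antisense gene Gm12534. Reads that overlap both genes were left out by the counting settings, which did not use strand, and Gm12534 had 0 counts in all 6 libraries.

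Some genes that transmit or limit signals of these and related cytokines differed between strains. Over all genes tested, 9.11% were higher and 8.22% lower in NOD.B10, or 12.3% and 14% without BL/10 replicate 1. Of 21 genes for receptors and signaling of IL-2 and IL-21, all tested, 5 rose and 1 fell, with a median log2 fold change of 0.26. This became 7 higher and 2 lower without BL/10 replicate 1, and 1 each way against that library alone. Socs3, a feedback inhibitor of cytokine receptors, rose from 22.1 ± 1.99 to 44.3 ± 5.95 CPM (SD, n = 3), with a log2 fold change of 1.00 (SE 0.13, adjusted p = 0.0021, edgeR). Jak3, the kinase bound to the common gamma chain, rose by a log2 fold change of 0.58 (adjusted p = 0.0074, edgeR). Il7r, the receptor of another gamma chain cytokine, rose by 1.02 on the log2 scale, Prdm1, a regulator of plasma cell differentiation, by 0.64, and Stat3, which transmits IL-21 signals, by 0.50. Il15, a cytokine that shares receptor chains with IL-2, fell from 10.9 ± 0.475 to 5.71 ± 0.298 CPM (log2 fold change -0.94, adjusted p = 0.0023, edgeR). The receptor genes of IL-2 and IL-21 did not pass with all 6 libraries. Their log2 fold changes were 0.51 for Il2ra (adjusted p = 0.0832), 0.02 for Il2rb (adjusted p = 0.927), 0.48 for Il2rg (adjusted p = 0.0632) and 0.58 for Il21r (adjusted p = 0.0577, edgeR). Without BL/10 replicate 1, Il2rg (0.60, adjusted p = 0.0173) and Il21r (0.81, adjusted p = 0.0022) passed in edgeR's test, whereas Il2ra (0.60) and Il2rb (-0.05) did not. Against that library alone the values were 0.33 for Il2ra, 0.14 for Il2rb, 0.25 for Il2rg and 0.21 for Il21r. Jak3 and Stat3 had 0.66 and 0.52 without BL/10 replicate 1, and 0.41 and 0.43 against it alone.

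Within 250 kb of Il2 or Il21, Cetn4, which encodes a centrin, was lower in NOD.B10. It was read 5, 14 and 10 times in NOD.B10 and 31, 36 and 36 times in BL/10, so the libraries did not overlap. Its level was 0.574 ± 0.281 CPM in NOD.B10 and 2.05 ± 0.365 CPM in BL/10 (log2 fold change -1.82, SE 0.35, adjusted p = 0.0125, edgeR). Cetn4 overlaps Bbs12 on the opposite strand, and Bbs12 had a log2 fold change of 0.37 (adjusted p = 0.151, edgeR). Cetn4 did not pass without NOD.B10 replicate 3 or against BL/10 replicate 1 alone, and was not tested with a minimum of 10 counts in every library.

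Ctla4 (ENSMUSG00000026011, chromosome 1, 60887000 to 60915832, plus strand) was read 172, 177 and 175 times in NOD.B10 and 167, 77 and 57 times in BL/10. The levels were 10.3, 10.9 and 9.83 CPM in NOD.B10 and 9.07, 5.16 and 3.24 CPM in BL/10. All 3 NOD.B10 libraries were above all BL/10 libraries, although BL/10 replicate 1 was close to them, at 2.16 times the mean of the other two. The log2 fold change was 0.82 (SE 0.32, 95% interval 0.07 to 1.57). It did not pass after adjustment (unadjusted p = 0.0354, adjusted p = 0.117, edgeR's quasi-likelihood test). Without BL/10 replicate 1 it was 1.30 and passed (adjusted p = 0.00687, edgeR), it passed as well with limma-voom and quality weights (1.06, adjusted p = 0.0292, where 21.8% of all genes tested passed), and against BL/10 replicate 1 alone it was 0.19 (adjusted p = 0.604, edgeR).

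Both other members of the CD28 family beside Ctla4 were higher in NOD.B10. Cd28, the activating receptor that shares its ligands with CTLA-4, had 45.2, 42.9 and 62.8 CPM in NOD.B10 and 23.1, 19.4 and 18.0 CPM in BL/10 (log2 fold change 1.32, SE 0.17, adjusted p = 0.00223, edgeR). Icos, a costimulatory receptor of activated and follicular helper T cells, had 24.4, 24.4 and 24.2 CPM in NOD.B10 and 16.4, 14.4 and 10.8 CPM in BL/10 (0.81, SE 0.15, adjusted p = 0.0113, edgeR). Libraries of the strains did not overlap for either gene. Against BL/10 replicate 1 alone Cd28 still passed (1.12, adjusted p = 0.0466, edgeR) and Icos did not (0.57, adjusted p = 0.0583, edgeR). The third tested gene within 250 kb, the ribosomal protein pseudogene Rpl18-ps1, lies within the annotated span of Ctla4 and had a log2 fold change of 0.22 (adjusted p = 0.692, edgeR).

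Of 17 genes of CD28 family costimulation and checkpoints, 5 rose and none fell in edgeR's test, against backgrounds of 9.11% and 8.22% of all genes tested, with a median log2 fold change of 0.37. The counts moved to 10 higher and 2 lower without BL/10 replicate 1 (median 0.39) and to 1 higher against that library alone (median 0.16), where 26.3% and 6.19% of all genes tested passed. Besides Cd28 and Icos, these were Havcr2 (TIM-3), an inhibitory receptor, with a log2 fold change of 0.63 (adjusted p = 0.0054, edgeR), Cd96, a receptor of T and NK cells, with 0.78, and Cd274 (PD-L1), the ligand of PD-1, with 0.37. Pdcd1, which encodes PD-1, had 12.9, 12.4 and 14.6 CPM in NOD.B10 and 10.1, 4.29 and 4.49 CPM in BL/10 and did not pass (1.07, adjusted p = 0.0537, edgeR). As for Ctla4, the highest BL/10 library of Pdcd1 was replicate 1. The ligand genes of CTLA-4 did not pass, with -0.23 for Cd80 (adjusted p = 0.164) and 0.07 for Cd86 (adjusted p = 0.716, edgeR).

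**Figure D2:**
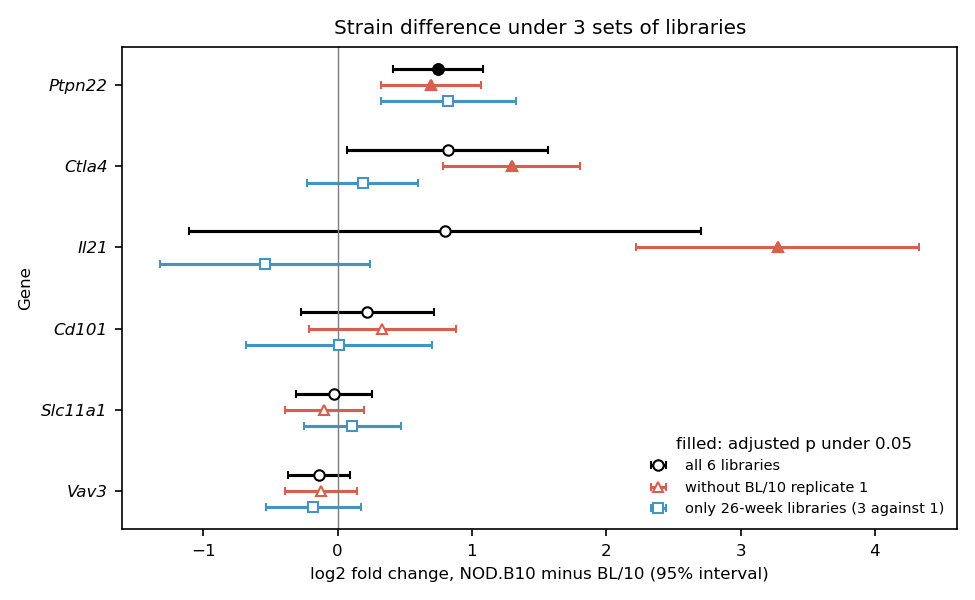
Log2 fold change of NOD.B10 over BL/10 with its 95% interval (x axis) for the 6 tested candidate genes (y axis), from all 6 libraries (circles), without BL/10 replicate 1 (triangles) and with BL/10 replicate 1 as the single BL/10 library (squares), filled where the adjusted p was under 0.05. Ptpn22 stayed between 0.70 and 0.83, whereas Il21 ranged from -0.54 to 3.28 and Ctla4 from 0.19 to 1.30.

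Ptpn22 (ENSMUSG00000027843, chromosome 3, 103859795 to 103912247, plus strand) was read 1815, 1587 and 2471 times in NOD.B10 and 1194, 963 and 1339 times in BL/10. Its level was 109, 97.5 and 139 CPM in NOD.B10 and 64.8, 64.6 and 76.1 CPM in BL/10. Every NOD.B10 library was above every BL/10 library, and BL/10 replicate 1 was within the range of the BL/10 strain. The means were 115 ± 21.4 and 68.5 ± 6.57 CPM (SD, n = 3), a log2 fold change of 0.75 (SE 0.14, adjusted p = 0.0122, edgeR's quasi-likelihood test), or 1.68-fold with a 95% interval of 1.33 to 2.11. Ptpn22 passed in 13 of 14 settings, with log2 fold changes of 0.59 to 0.85. Against BL/10 replicate 1 alone it did not pass (0.83, adjusted p = 0.0773, edgeR).

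None of the 9 tested genes within 250 kb of Ptpn22 passed in edgeR's test, and their log2 fold changes ranged from -0.25 to 0.77. The nearest, Rsbn1, had 0.25 (adjusted p = 0.168, edgeR). Bcl2l15, on the other side, had 0.77 (adjusted p = 0.0656, edgeR), a fold change close to that of Ptpn22, without passing. Rsbn1 passed without BL/10 replicate 1 (0.35, adjusted p = 0.0462, edgeR), and Bcl2l15 passed without NOD.B10 replicate 3 (0.95, adjusted p = 0.0493, edgeR).

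Over all genes tested, 9.11% were higher and 8.22% lower in NOD.B10 (12.3% and 14% without BL/10 replicate 1). Of 19 partners and substrates of Ptpn22 in antigen receptor signaling, 7 rose and none fell in edgeR's test, with a median log2 fold change of 0.27. There were 10 higher and none lower without BL/10 replicate 1, and 5 higher and 1 lower against it alone. Of the 7, the 6 with the smallest p were genes of the T cell receptor complex, its kinases and an adaptor. Lck, the Src family kinase on which the phosphatase acts, rose from 71.6 ± 12.4 to 171 ± 24.6 CPM (log2 fold change 1.26, adjusted p = 0.0019, edgeR). Zap70, the kinase recruited to the phosphorylated receptor, rose by 1.00 on the log2 scale (adjusted p = 0.0032, edgeR). Cd3e and Cd247, chains of the receptor complex, rose by 1.42 and 1.45, the adaptor gene Lat by 1.19, and Fyn, another Src family kinase, by 0.55. Cd3e, Cd247 and Lat are also among the T cell markers used here. Csk, the kinase that binds the phosphatase, had 0.27 (adjusted p = 0.158, edgeR) and did not pass.

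Relative to T cell markers, values of Ptpn22 lay lower in NOD.B10 than in BL/10, in a comparison too small to pass a threshold of 0.05. Of 18 T cell markers, 15 passed and all of these rose, and their median log2 fold change was 1.32, above that of Ptpn22. The difference between log2 levels of Ptpn22 and the mean log2 level of the T cell markers was 1.07, 1.02 and 1.05 in NOD.B10 and 1.24, 1.38 and 1.97 in BL/10. Libraries of the strains did not overlap, with a difference of -0.48, at the smallest p that 3 libraries against 3 allow (two-sided exact permutation test, p = 0.1, adjusted over 12 such comparisons p = 0.3). BL/10 replicate 3 had the largest value, and without it the difference was -0.26. Relative to B cell markers, of which 1 of 12 passed and was lower, values of Ptpn22 lay higher in NOD.B10 without overlap, by 0.57 on the log2 scale (exact permutation test, p = 0.1, adjusted p = 0.3). When BL/10 replicate 1 was left out, this difference was 0.28 and 8 of the 12 B cell markers were higher and 1 lower. These tests cannot reach a p below 0.1. Relative to T cell markers, Ctla4 and Il21 overlapped between strains, with differences of -0.28 and 0.47 (exact permutation tests, p = 0.5 and p = 0.7). The difference of Ctla4 was -0.01 without BL/10 replicate 1. That of Il21 had no stable direction, with 1.47 without BL/10 replicate 1, -0.14 without BL/10 replicate 3, and -0.16 and -0.45 with pseudocounts of 0.5 and 1 CPM. Relative to regulatory T cell markers, Ctla4 differed by 0.22 (exact permutation test, p = 0.7), and by -0.02 without BL/10 replicate 3. Of these 10 markers 8 rose and 1 fell, and Foxp3, which defines the lineage, rose by 1.27 on the log2 scale (adjusted p = 0.0049, edgeR). Against BL/10 replicate 1 alone, none of the markers was higher and 1 was lower in edgeR's test, with a median of 0.47 compared with 0.83, and Foxp3 had 1.05 (adjusted p = 0.0834, edgeR). Their summed level was 193 to 220 CPM in NOD.B10 and 204 to 283 CPM in BL/10, and includes Capg, the marker that fell, with 57.1 ± 8.19 and 156 ± 25.0 CPM. The part of cell content in the levels of Ptpn22 and Ctla4 was not tested further.

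**Figure D3:**
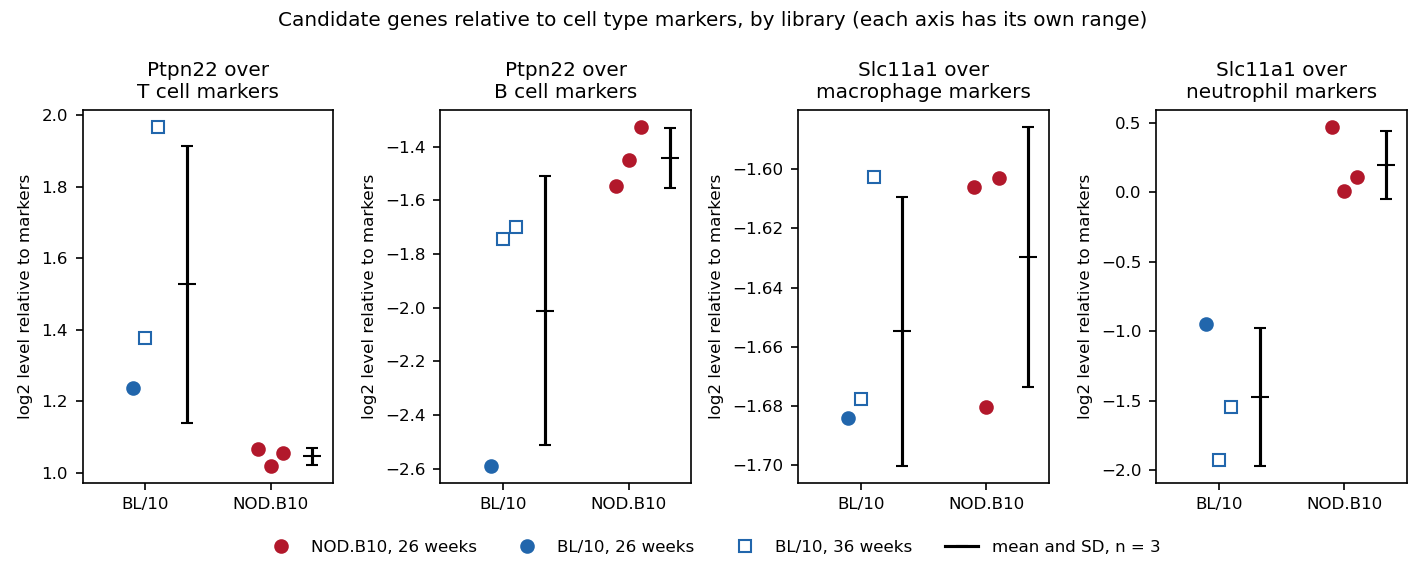
Log2 level of Ptpn22 or Slc11a1 minus the mean log2 level of a marker list (y axis, range differing between panels) in each library by strain (x axis), with NOD.B10 in red, BL/10 in blue, open squares for 36 weeks, and the mean and SD of 3 libraries in black. Ptpn22 over T cell markers was 1.02 to 1.07 in NOD.B10 and 1.24 to 1.97 in BL/10, and Slc11a1 over macrophage markers differed by 0.03 between strains.

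Vav3 (ENSMUSG00000033721, chromosome 3, 109340653 to 109685698, plus strand) had 24.8, 22.0 and 20.8 CPM in NOD.B10 and 25.5, 24.5 and 24.4 CPM in BL/10. NOD.B10 replicate 1 was within the range of BL/10 and the other two NOD.B10 libraries were below it. The log2 fold change was -0.14 (SE 0.10, 95% interval -0.37 to 0.09, adjusted p = 0.363, edgeR's quasi-likelihood test), and it stayed below 0 in all 14 settings without passing. The family members Vav1 and Vav2 had 0.21 (adjusted p = 0.168) and 0.12 (adjusted p = 0.497, edgeR). Neither tested gene within 250 kb of Vav3 passed in edgeR's main test with all 6 libraries, where Slc25a24 had -0.39 (adjusted p = 0.0520, edgeR). With the same libraries Slc25a24 passed with DESeq2 (-0.40, adjusted p = 0.0395) and limma-voom (-0.43, adjusted p = 0.0277). It also passed with the replicate number as a block (-0.39, adjusted p = 0.0349, edgeR) and without BL/10 replicate 1 (-0.49, adjusted p = 0.0192, edgeR).

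Slc11a1 (ENSMUSG00000026177, chromosome 1, 74375195 to 74386062, plus strand) had 101, 82.7 and 82.7 CPM in NOD.B10 and 82.3, 86.8 and 102 CPM in BL/10. The strains overlapped over nearly their whole range. The log2 fold change was -0.02 (SE 0.12, 95% interval -0.31 to 0.26, adjusted p = 0.907, edgeR's quasi-likelihood test). None of the 13 tested genes within 250 kb passed with all 6 libraries, and Cxcr2 passed without NOD.B10 replicate 3 (0.79, adjusted p = 0.0269, edgeR). Cxcr2 is also among the neutrophil markers used here, and with 0.58 over all 6 libraries it was the only one of them above 0.

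Slc11a1 differed from macrophage markers by -1.61, -1.68 and -1.60 on the log2 scale in NOD.B10 and by -1.68, -1.68 and -1.60 in BL/10. The difference between strains was 0.03 (exact permutation test, p = 0.7), and the 6 libraries lay within a narrow range. Of the 14 macrophage markers, 2 rose and 2 fell, with a median log2 fold change of -0.02, and none was higher and 3 lower in edgeR's test without BL/10 replicate 1. Relative to neutrophil markers, of which 12 of 13 fell, values of Slc11a1 lay higher in NOD.B10 by 1.67 without overlap (exact permutation test, p = 0.1, adjusted p = 0.3). Over the 6 libraries the value relative to neutrophil markers ranged from -1.93 to 0.47.

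Among 16 genes of metal transport and iron handling, 15 were tested, 3 rose and 3 fell, with a median log2 fold change of -0.15. The shares over all genes tested were 9.11% higher and 8.22% lower, and 12.3% and 14% without BL/10 replicate 1. The counts were 3 higher and 5 lower without BL/10 replicate 1, and 1 each way against it alone. Cd163, the scavenger receptor for hemoglobin, rose from 34.4 ± 13.4 to 111 ± 8.04 CPM (log2 fold change 1.70, adjusted p = 0.0064, edgeR). Lcn2, a siderophore-binding protein of neutrophil granules, fell from 328 ± 122 to 80.3 ± 9.37 CPM (-2.03, adjusted p = 0.0032, edgeR). Slc40a1, the iron exporter ferroportin, fell by 0.62 on the log2 scale and the zinc transporter gene Slc39a8 fell by 0.75, whereas the related transporter gene Slc39a14 rose by 0.64 and Cp, the ferroxidase ceruloplasmin, rose by 0.61. Lcn2 is also among the neutrophil markers used here, and Slc40a1 is among the macrophage markers. Genes of this list thus moved in both directions around Slc11a1.

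Cd101 (ENSMUSG00000086564, chromosome 3, 100993529 to 101029556, minus strand) had 12.0, 9.27 and 7.19 CPM in NOD.B10 and 9.40, 8.18 and 6.82 CPM in BL/10. The strains overlapped, with NOD.B10 replicate 1 highest and BL/10 replicate 3 lowest. The log2 fold change was 0.22 (SE 0.21, 95% interval -0.27 to 0.72, adjusted p = 0.499, edgeR's quasi-likelihood test) and stayed above 0 in all 14 settings without passing. Relative to macrophage markers the difference between strains was 0.25 (exact permutation test, p = 0.5), and relative to regulatory T cell markers it was -0.51 (exact permutation test, p = 0.2). Relative to neutrophil markers, of which 12 of 13 fell, it was 1.90 without overlap (exact permutation test, p = 0.1, the smallest possible, adjusted p = 0.3).

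Of 10 genes listed with Cd101, which were immunoglobulin superfamily genes and tetraspanins, 2 rose and 2 fell, with a median log2 fold change of 0.13. The shares over all genes tested were 9.11% higher and 8.22% lower, and 12.3% and 14% without BL/10 replicate 1. Leaving out BL/10 replicate 1 gave 3 each way, and that library alone gave none higher and 1 lower in edgeR's test. Cd84 and Cd244a, receptors of the SLAM family, rose by 0.58 and 0.53 on the log2 scale (adjusted p = 0.0371 and 0.037, edgeR). Igsf3, an immunoglobulin superfamily gene, fell by 0.79 and Cd9, a tetraspanin, by 0.51. Ptgfrn, which lies next to Cd101 and belongs to the same subfamily, had -0.15 (adjusted p = 0.498, edgeR). None of the 4 tested genes within 250 kb of Cd101 passed in edgeR's main test with all 6 libraries. The nearest to the threshold was Ttf2, with -0.38 (adjusted p = 0.0541, edgeR). With the same libraries Ttf2 passed with DESeq2 (adjusted p = 0.0450), limma-voom (adjusted p = 0.0336) and the replicate number as a block (adjusted p = 0.0352, edgeR). Without BL/10 replicate 1, Ttf2 (-0.45, adjusted p = 0.0319) and Cd2 (0.41, adjusted p = 0.0209) passed in edgeR's test.

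Over all 7 windows, 37 of 111 neighboring genes were tested and 3 passed (Cd28, Icos and Cetn4), a share of 8.11% that was below the background of 17.3%. The median log2 fold change of the 37 genes was 0.07. With DESeq2 and with limma-voom, 5 passed, the added genes being Ttf2 near Cd101 and Slc25a24 near Vav3.

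**Figure D4:**
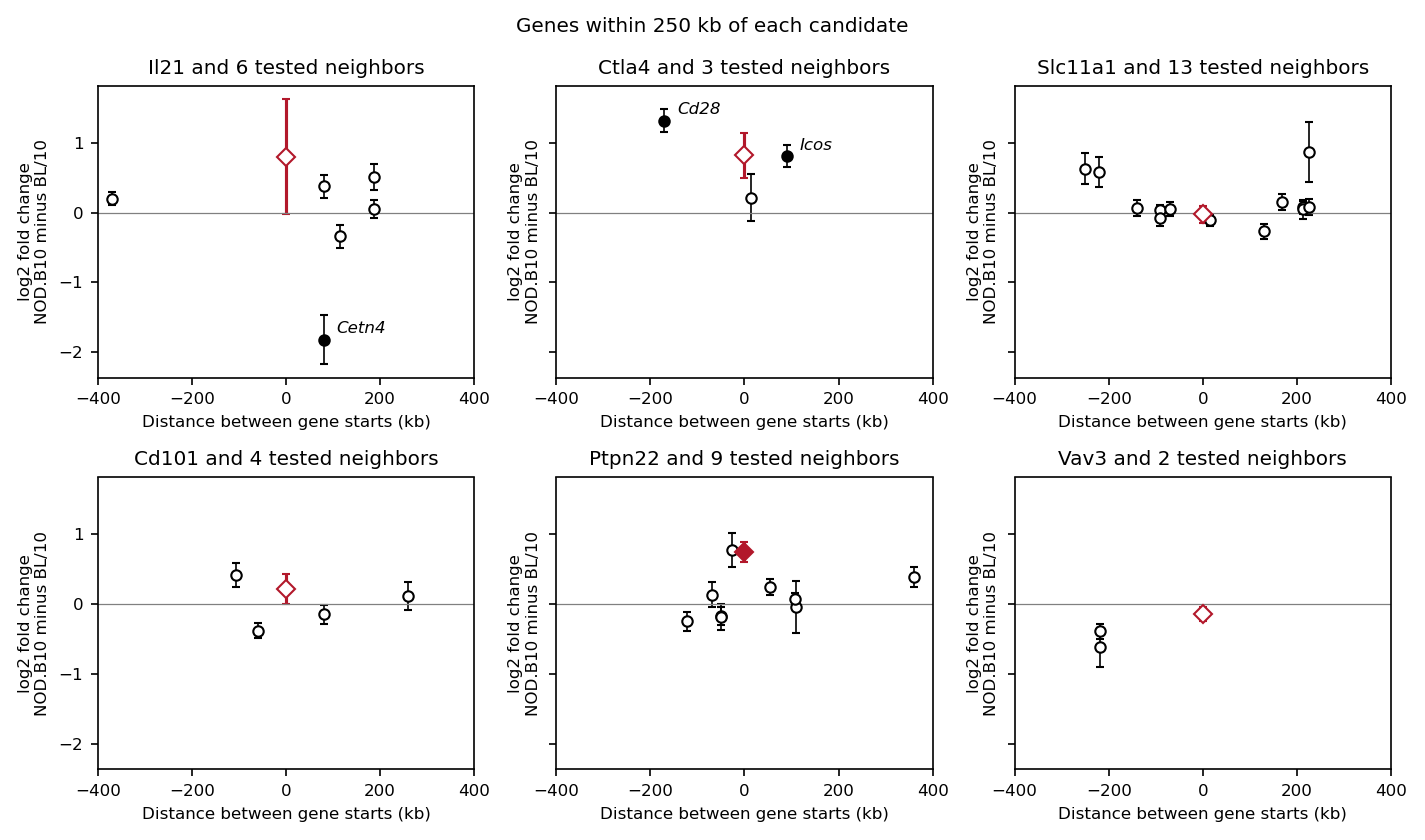
Log2 fold change of NOD.B10 over BL/10 with its SE (y axis) for the 6 tested candidate genes (red diamonds) and the tested genes within 250 kb of each (black circles), by the distance between gene starts in kb (x axis), filled where the adjusted p was under 0.05. Cd28 (1.32) and Icos (0.81) flank Ctla4, Cetn4 (-1.82) lies near Il21, and none of the 9 tested neighbors of Ptpn22 passed with all 6 libraries.

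The 7 lists of partner genes together held 121 genes, of which 119 were tested and 34 passed, 26 of them higher and 8 lower. The median over the 119 genes was 0.15 on the log2 scale. This was 28.6% of the genes tested, against 17.3% of all genes. The count was 15 when BL/10 replicate 1 was the single BL/10 library, where the background was 6.19%, and 57 without it, where the background was 26.3%. It was 21 without NOD.B10 replicate 1 and 22 without BL/10 replicate 3. The last of these lists held 21 other candidates of NOD loci, of which 20 were tested, 4 rose and 2 fell, with a median of 0.13. Without BL/10 replicate 1, 8 rose and 2 fell (median 0.23), and against it alone the median was 0.05. The shares over all genes tested were 9.11% higher and 8.22% lower, and 12.3% and 14% without BL/10 replicate 1. Besides Cd28 and Icos, Ets1, a transcription factor of lymphocytes, rose by 0.81 and Il6st, the shared receptor chain gp130, by 0.59. Fcgr1, the high-affinity receptor for IgG, fell by 1.16 on the log2 scale, and Ifih1, a sensor of viral RNA, fell from 54.8 ± 13.9 to 25.8 ± 2.70 CPM (log2 fold change -1.09, adjusted p = 0.0074, edgeR).

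**Figure D5:**
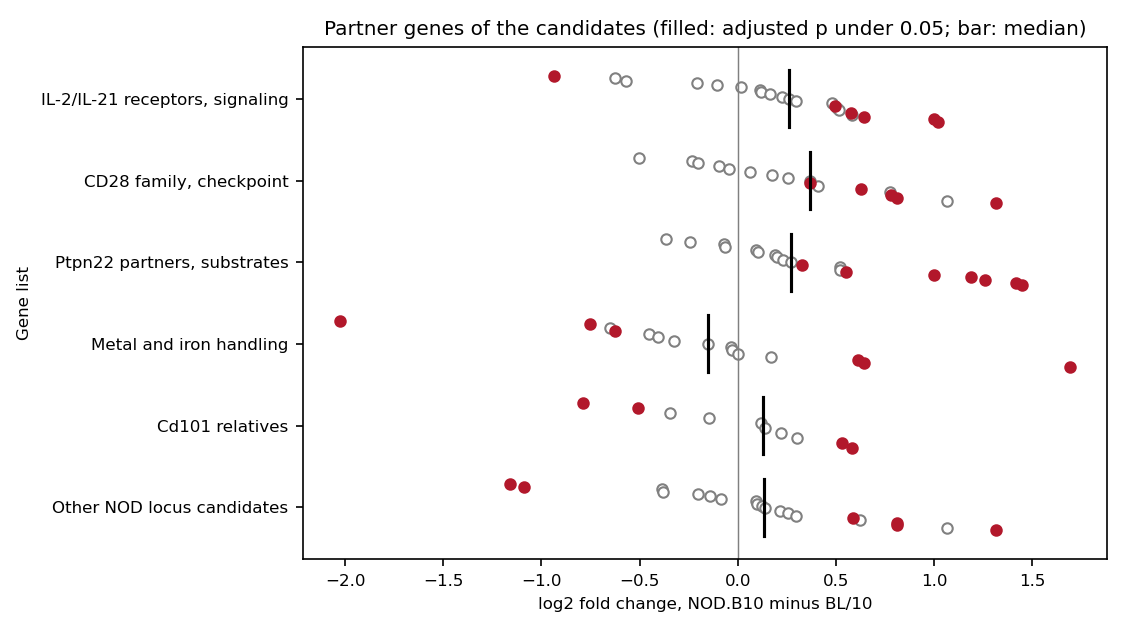
Log2 fold change of NOD.B10 over BL/10 (x axis) for the tested genes of 6 of the 7 lists of partner genes (y axis), with 1 circle per gene, filled where the adjusted p was under 0.05, and the median of each list as a black bar. The medians lie between -0.15 for metal and iron handling and 0.37 for the CD28 family.

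Likeness to each candidate gene was described by Pearson's r of log2(CPM + 0.5) over the 6 libraries, among 14217 genes with a mean of at least 1 CPM. The 6 points share the strain difference and the differences between libraries, and the values are given as a description. The genes most like Ptpn22 were Pik3ip1, an inhibitor of phosphoinositide 3-kinase (r = 0.999), Ado (r = 0.998) and Jak1 (r = 0.996). Pik3ip1 also passed between strains (log2 fold change 1.18, adjusted p = 0.0101, edgeR). The genes most like Il21 were Lamp3, Rnf2 and Bmt2 (r = 0.992 to 0.995), and Lamp3, a marker of mature dendritic cells, had 2.77 CPM in BL/10 replicate 1 and 0.604 and 0.511 CPM in BL/10 replicates 2 and 3. The genes most like Ctla4 were Sccpdh, Tmem150c and Zfp943 (r = 0.992 to 0.996). Those most like Slc11a1 were Tmem106a, Tfe3 and Zfp516, those most like Cd101 were Aspscr1, Lag3 and Sinhcaf, and those most like Vav3 were Fdx1l, Hnmt and BC051142, with r of 0.963 to 0.980. Among the candidate genes themselves, Ctla4 and Il21 had the highest r, 0.93, and both were high in BL/10 replicate 1, whereas Ptpn22 and Vav3 had the lowest, -0.77.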

How the data were processed

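RNA of 6 spleens (3 mice per strain) was sequenced with single-end reads, and the authors deposited raw read counts per gene. Mapping is given as Tophat2 on mm10 in the study's methods, and the submitters' processing notes name HISAT2 version 2.0.5 and GRCm38. Per the file header, exons of Ensembl 84 were counted by featureCounts version 1.5.1 without strand, and reads that overlap several genes or map to several places were left out. Symbols matched 47224 of 47729 gene identifiers.

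Counts were filtered by filterByExpr, which left 15330 genes, normalized by TMM and compared with edgeR 4.0.16 (R 4.3.3) by its quasi-likelihood test with Benjamini-Hochberg adjustment over all genes tested. An adjusted p under 0.05 is called passed. The SE is the absolute log2 fold change over the square root of F. The study used DESeq2, which is an alternative here. On simulated counts of 15128 genes, 73 of 100 genes with a log2 fold change of 1, 99 of 100 with 2 and 13 of 14928 unchanged genes were called. Replicates of a strain differed by more than counting error (chi-square per degree of freedom at least 12.5). The BL/10 pairs with replicate 1 had 59.6 and 76.0, the BL/10 pair without it had 18.6, and the NOD.B10 pairs had 12.5 to 27.6. Levels relative to markers are log2(CPM + 0.1) minus the mean of the markers, compared by two-sided exact permutation tests with Python 3.11.15 and SciPy 1.17.1.

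Strains were taken from descriptions and column names, a choice that was not blind to the results. The column of BL/10 replicate 3 was matched by library number and strain, since its remaining suffix is not that of the description. The candidate genes, gene lists and tests were chosen with earlier results of these data known, so no list is independent evidence of its direction. The result of 1 of the 7 partner lists is not reported here on its own. Named were all 7 candidates, called genes within 250 kb, at most 6 called genes per list with the smallest p, and the 3 genes most like each tested candidate. Other genes, among them receptor and ligand genes, Pdcd1, Csk, Foxp3, Vav1, Vav2 and uncalled neighbors, were named after their values were seen.

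Alternatives were DESeq2 1.42.0, RLE size factors, a filter of 1 count in all or of 10 counts in each library, the replicate number as a block, limma-voom (limma 3.58.1) with quality weights, each library left out in turn, only libraries labelled 26 weeks, a window of 100 kb, and pseudocounts of 0.5 and 1 CPM.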

Additional observations from a re-analysis of the deposited data

How the results depend on the processing

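Cd101, Vav3 and Ctla4 kept their direction in all settings run, and Ptpn22 kept its direction in all and its call in all but 1, the 26-week libraries alone (0.83, adjusted p = 0.0773, edgeR). Il21 reversed with the 26-week libraries (-0.54). The log2 fold change of Slc11a1, which never passed, changed sign with limma-voom (0.0038), with the 26-week libraries (0.11) and when single libraries were left out (-0.13 to 0.07, among them 0.03 without NOD.B10 replicate 2 or 3 and 0.066 without BL/10 replicate 3). Il2 failed the filter and was fitted only with DESeq2 (1.54, adjusted p = 0.535) and without the filter (1.39, adjusted p = 0.444, edgeR), and with at least 10 counts in every sample Il21 was not tested. Only the 26-week libraries, 3 against 1, gave 1001 called genes over all genes, 0 of the candidates, 1 near them and 15 of the partner genes, and the lone BL/10 library is assumed there to vary like the NOD.B10 libraries. Leaving out 1 library at a time gave 1269 to 4107 genes over all, 1 to 3 candidates, 3 to 7 neighbors and 21 to 57 partner genes. The lowest counts over all and among partners came without NOD.B10 replicate 1, and the highest without BL/10 replicate 1. Over all, 1395 genes passed without NOD.B10 replicate 3, 1580 without BL/10 replicate 2 and 1744 without BL/10 replicate 3. With limma-voom 2 candidates and 5 neighbors passed, with DESeq2 5 neighbors, the added neighbors being Ttf2 and Slc25a24 in both. Replicate numbers did not pair the samples (correlations of deviations of 0.05, 0.25 and -0.08 for equal numbers), and with the replicate block 2889 genes over all, 1 candidate, 5 neighbors and 39 partner genes passed. Il2 relative to T cell markers was -0.98 with a pseudocount of 1 CPM instead of -0.15, and turned to 0.30 without BL/10 replicate 1 and 0.26 without NOD.B10 replicate 3. Il21 relative to T cell markers (0.47) turned to -0.16 and -0.45 with pseudocounts of 0.5 and 1 CPM and to -0.14 without BL/10 replicate 3. Ctla4 relative to regulatory T cell markers (0.22) turned to -0.020 without BL/10 replicate 3. With single libraries left out, these 3 ranged from -0.46 to 0.30, from -0.14 to 1.47 and from -0.020 to 0.43. The other 9 relative levels kept their sign in these settings. The low counts of Il2 and Il21, the 3 libraries per strain, the age labels and the strain labels limit what these data show.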
